A study of Mus musculus with 80 samples.

Results

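Brown adipose tissue (BAT) and inguinal white adipose tissue (iWAT) of mice that lack uncoupling protein 1 (UCP1 KO) were compared by RNA sequencing, with 5 libraries of each depot, 10 of the 80 libraries of the series. The libraries were taken by their tissue and genotype labels. UCP1 KO stands throughout for libraries that carry this label. The series also holds liver and muscle, and the genotypes wild type (WT), FGF21 KO and UCP1/FGF21 double knockout (dKO), with 5 libraries in each group used here. The genotype label of the dKO libraries reads UCP1/FGF12. It was taken as UCP1/FGF21, because the authors crossed UCP1 KO with FGF21 KO mice. All mice were homozygous males that were bred and raised at 30 °C, moved to room temperature at 10 to 12 weeks of age and fed a high-fat diet for 3 weeks, and food was withdrawn 2 to 3 hours before the tissues were taken. The UCP1 KO was homozygous, on the C57BL/6J background and not limited to a tissue, so both depots developed under it. The UCP1 KO libraries held 34890799 to 45624697 counted reads in BAT and 33654053 to 36588343 in iWAT.

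UCP1 is the mitochondrial carrier that lets protons return across the inner membrane of thermogenic adipocytes without making ATP, so that respiration is released as heat. BAT is built of multilocular adipocytes that are rich in mitochondria and carry this programme from birth. The inguinal depot is a white fat that stores triglyceride, and in the cold or under adrenergic or FGF21 signals some of its cells take on a brown-like, or beige, state. The developmental origin of the depots differs, and position genes of the Hox and Zic families mark it. The comparison asked which differences between the depots were still there in UCP1 KO and which were smaller or gone, with the WT depots as reference. The UCP1 KO and WT depot comparisons share no library.

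Markers were checked first, as the mean log2(CPM + 0.1) of fixed marker lists, where CPM are read counts scaled to a common library size. The 8 adipocyte markers scored 9.44 to 10.31 in BAT and 9.83 to 10.64 in iWAT of UCP1 KO. The 8 brown adipocyte markers scored 6.56 to 7.58 in BAT and 3.57 to 5.43 in iWAT of UCP1 KO, and 1.52 to 2.55 in iWAT of WT. Macrophage markers scored 4.43 to 5.95 in BAT and 6.32 to 7.93 in iWAT, and all 8 were called higher in iWAT, where 19.5% of all genes tested were. One iWAT library, replicate 2, stood apart with a lymph node score of 6.95 against -0.18 to 0.26 in the other iWAT libraries. Its 8 lymph node markers brought the highest summed level in iWAT to 1670 CPM, with 7.21 CPM in the lowest iWAT library and 3.52 to 10.3 CPM in BAT. Skeletal muscle markers were high in BAT replicate 2, with a score of 9.73, and in iWAT replicate 1, with 10.27. BAT replicates 3 and 4 had 6.34 and 5.14, where WT BAT had 1.54 to 3.57. In BAT of dKO the range was 3.06 to 8.77, with 8.47, 8.77 and 8.7 in replicates 1, 3 and 4, and the part of this signal in the dKO gaps was not tested. Over the UCP1 KO libraries the 10 muscle markers summed to 68.1 to 10000 CPM in BAT and to 35.4 to 20100 CPM in iWAT. In bulk tissue, fewer cells of a type and less RNA per cell cannot be told apart.

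The targeted gene was still counted. Ucp1 (chr8:83290352-83298452, plus strand, GRCm38) had 1530, 1070, 1490, 1010 and 653 CPM in the 5 BAT libraries labelled UCP1 KO and 201, 87.6, 385, 281 and 588 CPM in the 5 iWAT libraries. In WT the range was 3960 to 9200 CPM in BAT and 2.16 to 13.4 CPM in iWAT. So reads of the gene were fewer in BAT of UCP1 KO than in any WT BAT library, and more numerous in iWAT of UCP1 KO than in any WT iWAT library. A gene-level count does not show which exons the reads come from, so it is no check of the allele, and in iWAT it moves against the label. The libraries labelled dKO had 1260 to 2320 CPM of Ucp1 in BAT and 3.33 to 24.1 CPM in iWAT, where 4 of the 5 were above every WT iWAT library, so there too the iWAT count moves against the label. The fitted depot difference in UCP1 KO, called the gap below, was 1.90 ± 0.75 on the log2 scale (SE, n = 5 and 5, edgeR adjusted p = 0.0353), which misses the threshold of 0.01, although the BAT and iWAT libraries did not overlap (exact permutation test, two-sided, p = 0.00794, the smallest value that 5 against 5 allows). In WT the gap was 10.18 ± 1.08, and the gap in UCP1 KO was lower by a log2 difference of -8.29 ± 1.17 (adjusted p = 1.32e-05). Without iWAT replicate 2 and the other libraries with a high lymph node or muscle score, the Ucp1 gap in UCP1 KO passed the threshold (adjusted p = 0.000706). Over the 23 alternative fits its adjusted p ranged from 6.54e-05 to 0.0937.

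Across the genome the depots remained far apart. Of 17630 genes tested, 6398 (36.3%) were called at an adjusted p under 0.01 between BAT and iWAT of UCP1 KO, 2963 (16.8%) higher in BAT and 3435 (19.5%) higher in iWAT. With the filter applied over all 40 libraries the split was 3319 and 3096, so the larger side depends on the processing. In WT, 9180 genes (52.1%) were called, 4093 higher in BAT and 5087 higher in iWAT. The median size of the gap over all genes tested was 0.53 on the log2 scale in UCP1 KO and 0.75 in WT. A total of 5385 genes were called in both genotypes with the same sign, which is 58.7% of the WT calls and 84.2% of the UCP1 KO calls.

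The change of the gap itself was tested for each gene as the difference between genotypes. It was called for 1141 genes (6.47%), 795 with a more negative and 346 with a more positive gap in UCP1 KO. Under upper-quartile scaling the split was 525 more negative and 445 more positive. Genes called in both genotypes with the same sign and with no called difference are named kept here, and there were 4757 of them. A missed threshold does not show that their gaps were equal. Genes called in both with a called, smaller gap are named shrunk (619 genes), and genes called in WT only with a called difference are named vanished (374). On the other side, 112 genes were called in UCP1 KO only with a called difference (new), 9 had a larger gap (grown), and 21 were called in opposite directions (turned). With the libraries of a lymph node score above 4 or a muscle score above 9 left out of all groups, which leaves BAT of dKO whole, the difference was called for 1987 genes, with 4449 kept, 1091 shrunk and 709 vanished. With 1 library of UCP1 KO or WT left out in turn, 3836 to 5007 genes were kept and 408 to 761 shrunk. Vanished genes then ranged from 232 to 594 and new genes from 61 to 151.

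**Figure D1:**
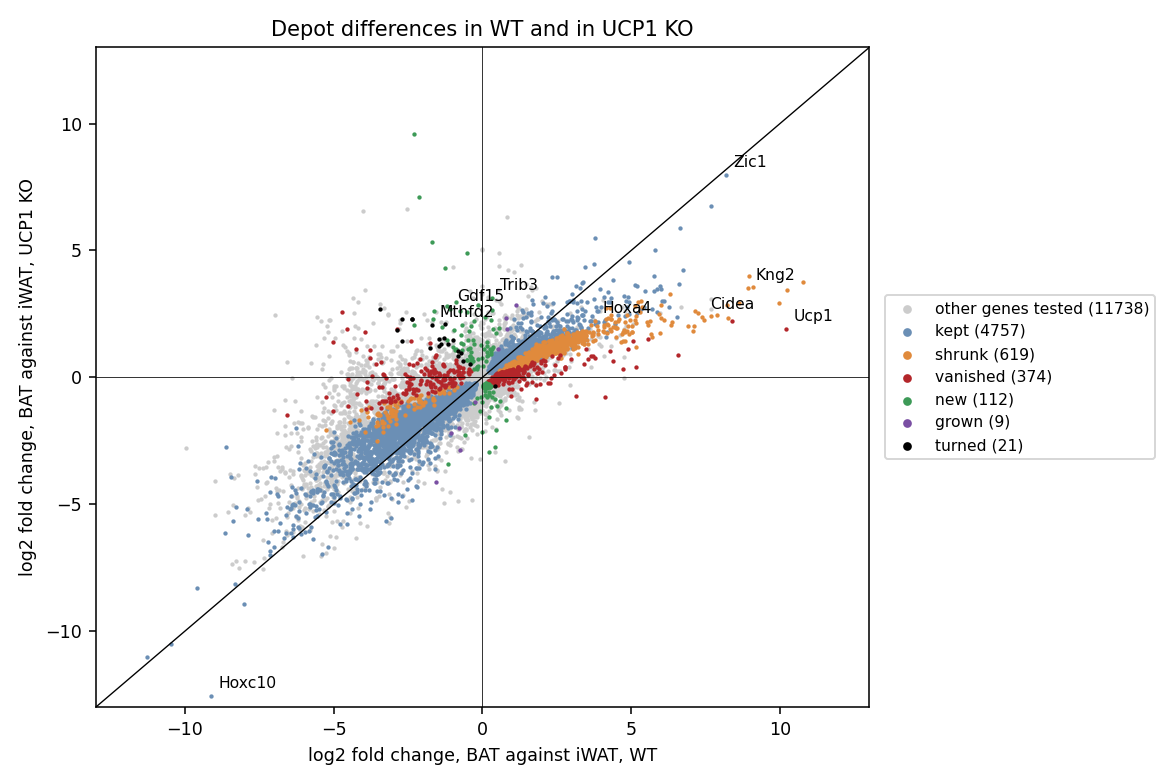
Each point is a gene, with its log2 fold change of BAT against iWAT in WT on the x axis and in UCP1 KO on the y axis; the diagonal marks equal gaps and colours mark the classes. The 619 shrunk genes fan out between the diagonal and the horizontal zero line, mostly on the BAT-higher side, while Zic1 lies near the diagonal.

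Of the 1023 genes that were called in WT and whose gap differed, 9 were grown, and in 1014 the gap moved toward the other depot, as 619 shrunk, 374 vanished and 21 turned genes. The 747 of the 1014 that were higher in WT BAT, 1 of them turned, had a median gap of 1.95 in WT, 0.89 in UCP1 KO and 1.59 in dKO. Among them the iWAT level rose in UCP1 KO against WT in 383 genes and the BAT level fell in 278, with both called in 34 and neither in 118. The 267 that were higher in WT iWAT, 20 of them turned, had a median gap of -2.17 in WT, -0.36 in UCP1 KO and -0.93 in dKO. There the BAT level rose in 255 genes and neither depot was called in 12, where 4.11% of all genes tested were called for iWAT of UCP1 KO against WT and 12.4% for BAT. Of the 8 macrophage markers, 5 also rose in BAT of UCP1 KO against WT, with a median log2 change of 1.1 over the list (12.4% of all genes tested were called there), and the BAT scores were 4.43 to 5.95 in UCP1 KO and 4.17 to 4.46 in WT. Their part in the 255 genes was not tested. These comparisons use the same UCP1 KO and WT libraries as the gap itself. Both sets were chosen by a WT call and a called move toward the other depot in UCP1 KO. Their smaller medians in UCP1 KO than in WT therefore follow from the choice. The dKO libraries took no part in the choice, so the dKO medians are no like-for-like reference. A choice by the WT call also favours smaller gaps among the 1023 genes.

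The genes of brown and thermogenic function were still mostly higher in BAT, at a smaller gap. Of 28 such genes tested, 19 were higher in BAT of UCP1 KO, against 26 in WT, and the rest were not called. Over all genes tested 16.8% were higher in BAT of UCP1 KO, and 4093 of 17630 in WT. The gap was called smaller in UCP1 KO than in WT for 20 of the 28, against 6.47% of all genes tested. Of the 28, 17 were shrunk, 3 vanished and 2 kept, against 3.51%, 2.12% and 27% of all genes tested. Their median gap was 1.91 in UCP1 KO, 4.97 in WT and 4.41 in dKO, where the median over all genes tested was -0.11, -0.17 and -0.19. Against WT, the UCP1 KO level of 21 of the 28 rose in iWAT and that of 1 rose in BAT, where 702 and 1306 of all 17630 genes tested rose. With the libraries of high lymph node or muscle score left out, 22 were called higher in BAT of UCP1 KO and 25 had a smaller gap. In that setting 3152 of all genes tested were higher in BAT and 1390 had a more negative gap.

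Cidea, a lipid droplet protein that marks brown adipocytes, had 3670, 2000, 2540, 2340 and 1630 CPM in BAT of UCP1 KO and 280, 159, 447, 495 and 948 CPM in iWAT. In WT its range was 2470 to 2800 CPM in BAT and 7.33 to 36.6 CPM in iWAT. The BAT libraries of the genotypes overlapped, while every iWAT library of UCP1 KO was above every iWAT library of WT. The gap was 2.39 ± 0.51 in UCP1 KO (adjusted p = 0.000219) and 7.39 ± 0.64 in WT, a log2 difference of -5.00 ± 0.72 (adjusted p = 1.72e-05). Cox7a1, the heart and brown fat isoform of a cytochrome c oxidase subunit, had 326 to 599 CPM in BAT and 29.5 to 179 CPM in iWAT of UCP1 KO, with a gap of 2.26 ± 0.46 against 6.12 ± 0.55 in WT.

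Kng2, which encodes a kininogen, had 229, 76.9, 214, 303 and 189 CPM in BAT of UCP1 KO and 4.48, 2.20, 17.4, 18.4 and 45.3 CPM in iWAT. Its iWAT level in WT was 0.173 to 0.433 CPM. The depots still did not overlap, with a gap of 3.53 ± 0.53 (adjusted p = 1.45e-06) against 8.92 ± 0.71 in WT. Slc27a2, a fatty acid transporter and acyl-CoA synthetase, had a gap of 2.91 ± 0.75 against 8.64 ± 0.99, and without BAT replicate 1 the gap was 2.21 and no longer called. Lgr6, an R-spondin receptor that was named for the size of its change, had 44.3 to 129 CPM in BAT and 2.04 to 23.4 CPM in iWAT of UCP1 KO, and its gap was 3.46 ± 0.49 against 10.23 ± 0.72. Cpn2, a carboxypeptidase N subunit, fell from a gap of 8.27 to 2.34, and Slc2a5, a fructose transporter, from 6.59 to 0.88. For Slc2a5 the UCP1 KO libraries overlapped, at 0.591 to 46.7 CPM in BAT and 3.00 to 16.1 CPM in iWAT.

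Dio2, the deiodinase that activates thyroid hormone, shows how 1 library can carry a call. It had 467, 59.3, 53.1, 50.7 and 75.1 CPM in BAT of UCP1 KO and 39.3, 5.98, 12.3, 8.95 and 54.7 CPM in iWAT. The highest iWAT library was above the lowest BAT libraries. The gap was 2.54 ± 0.67 (adjusted p = 0.00212), and without BAT replicate 1 it was 1.34 (adjusted p = 0.0579, the highest of 23 alternative fits, with 0.00018 as the lowest), which is not called. Elovl3, a fatty acid elongase of cold-exposed brown fat, was the 1 gene of the 28 that rose in BAT of UCP1 KO against WT, and it also rose in iWAT. It had 740, 907, 977, 499 and 278 CPM in BAT and 87.6, 48.7, 188, 173 and 341 CPM in iWAT, against 55.6 to 85.8 CPM and 0.318 to 0.745 CPM in WT. Its gap of 2.02 ± 0.64 was close to the threshold (adjusted p = 0.00887), and leaving out 7 of the 10 libraries in turn ended the call, namely BAT replicates 1, 2 and 3 and iWAT replicates 1, 2, 3 and 4. Ppargc1a, the coactivator that drives mitochondrial biogenesis, was kept, at 64.7 to 116 CPM in BAT and 8.18 to 48.2 CPM in iWAT. Its gap was 1.93 ± 0.38 against 3.54 ± 0.40 in WT (adjusted p of the difference = 0.0349). Without iWAT UCP1 KO replicate 2, the library with the high lymph node score, this difference was called. Ppara, a nuclear receptor of fatty acid oxidation, had a gap of 1.61 ± 0.41 against 5.70 ± 0.49.

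**Figure D2:**
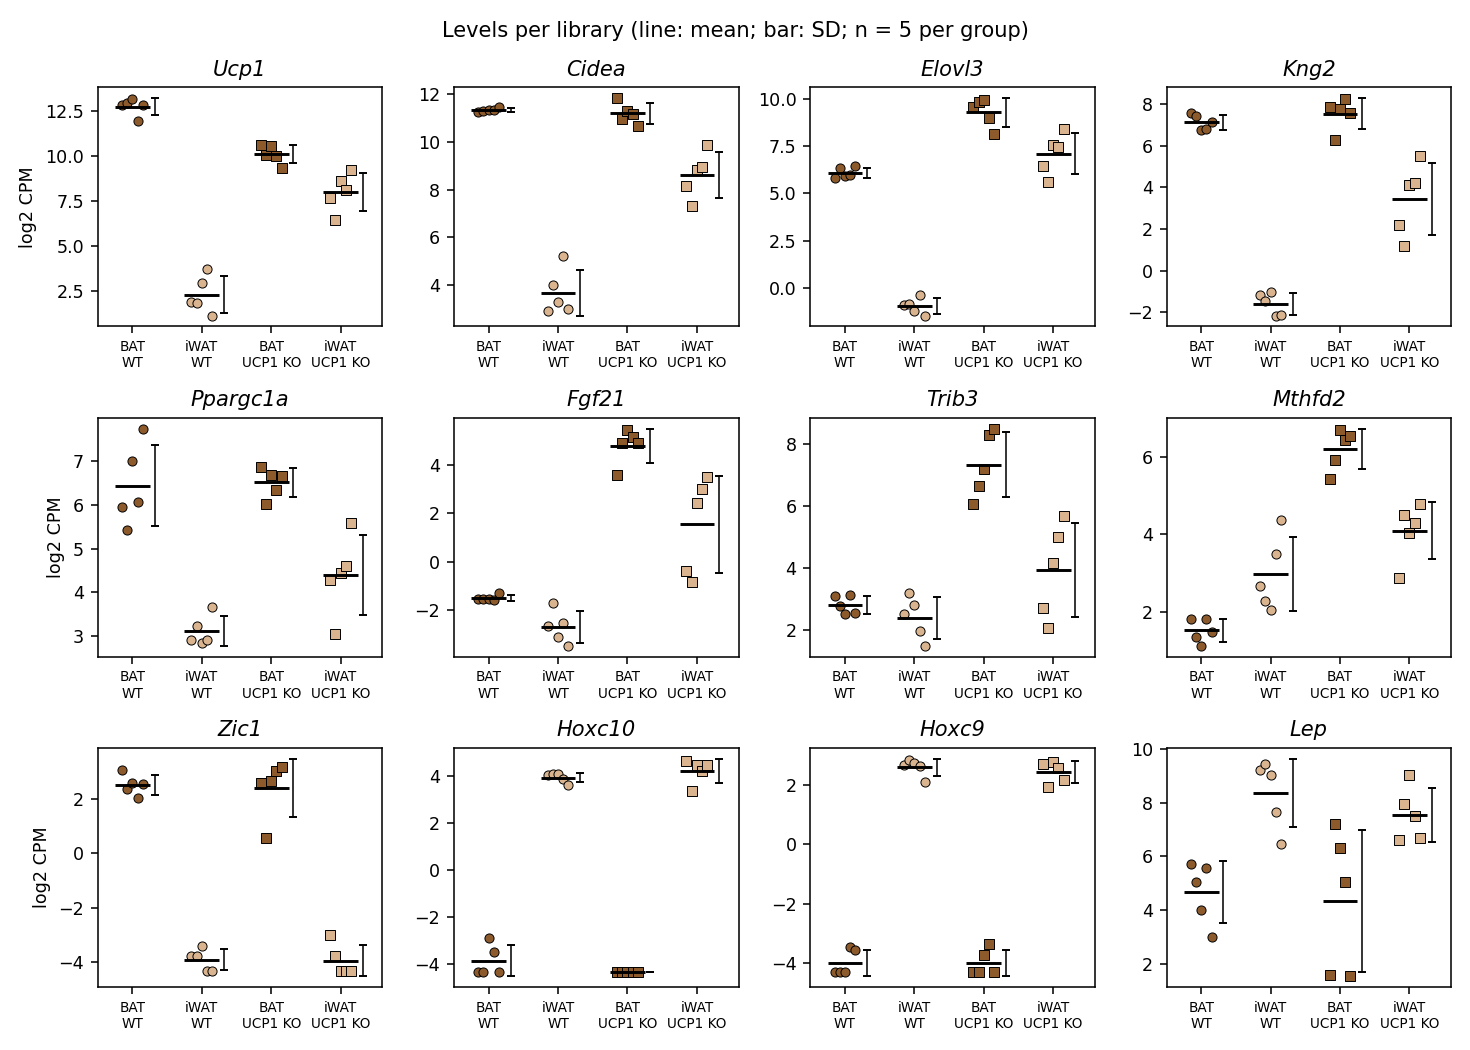
Each panel shows log2 CPM of 1 gene for every library of BAT and iWAT in WT (circles) and UCP1 KO (squares), with the mean as a line and the SD as a bar (n = 5). For Cidea and Kng2 the iWAT libraries of UCP1 KO lie above those of WT and below those of BAT, for Trib3 and Mthfd2 the BAT libraries of UCP1 KO lie highest, and for Zic1, Hoxc10 and Hoxc9 the depots do not overlap in either genotype.

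Most genes of mitochondrial oxidation were higher in BAT of UCP1 KO, and the median gap of each list was smaller than in WT. The shares over all genes tested are 16.8% for a higher level in BAT of UCP1 KO, 6.47% for a changed gap and 4.11% for a change in iWAT. Of 65 respiratory chain genes, 63 were higher in BAT of UCP1 KO, with a median gap of 1.31 against 2.61 in WT and 2.44 in dKO. The gap was called smaller than in WT for 57 of them, and 54 were higher in iWAT of UCP1 KO than of WT. All 21 genes of the citric acid cycle list were higher in BAT, with a median of 1.49 against 3.16, and 19 had a smaller gap. Of 24 genes of fatty acid oxidation, 20 were higher in BAT, with a median of 1.51 against 2.78, while 11 had a smaller gap and 1 a more positive one. Of 17 ATP synthase genes, 13 were higher in BAT and 1 in iWAT, with a median of 0.97 against 2.26, and 12 had a smaller gap and 1 a more positive one.

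Ndufs1, the largest subunit of complex I, had 879 ± 120 CPM in BAT and 327 ± 110 CPM in iWAT of UCP1 KO (SD, n = 5). In WT it had 1160 ± 58.5 and 154 ± 13.4 CPM, so its gap fell from 2.92 ± 0.22 to 1.42 ± 0.21. Cs, citrate synthase, was kept, with a gap of 1.66 ± 0.28 against 2.71 ± 0.29 (adjusted p of the difference = 0.0676). The exception in its group was Cpt1a, the carnitine palmitoyltransferase that predominates in liver, which was higher in iWAT of WT with a gap of -1.56 ± 0.22. In UCP1 KO it had 59.2, 61.7, 72.9, 99.0 and 197 CPM in BAT and 87.8, 86.2, 106, 92.7 and 110 CPM in iWAT. The depots overlapped, with a gap of 0.02 ± 0.21, and the difference from WT was 1.58 ± 0.31 (adjusted p = 0.000536). Its isoform Cpt1b, which serves muscle and brown fat, went the other way, from a gap of 6.37 in WT to 2.20. Cox6a2, a muscle isoform of cytochrome c oxidase, and Ndufb3 were the 2 respiratory chain genes that were not called in UCP1 KO, both named after their values were seen.

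**Figure D3:**
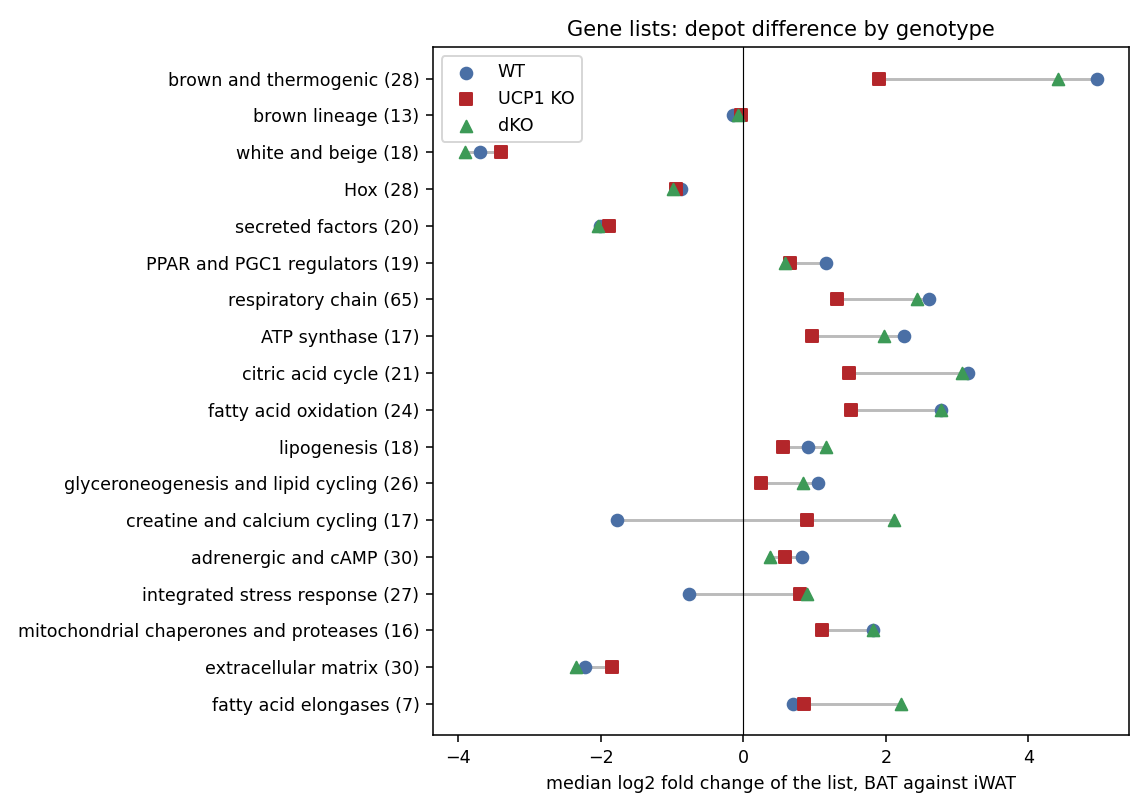
Each row is a gene list with its number of tested genes, and the symbols give its median log2 fold change of BAT against iWAT in WT (circle), UCP1 KO (square) and dKO (triangle). The brown, respiratory chain, citric acid cycle and fatty acid oxidation lists have their smallest median in UCP1 KO, and the integrated stress response list lies below zero in WT and above it in UCP1 KO and dKO.

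A depot difference that ran the other way was found in the integrated stress response. In this pathway, kinases that sense amino acid lack, mitochondrial stress or unfolded protein slow translation, the factor ATF4 is made, and ATF4 turns on genes of amino acid synthesis and import and the hormones FGF21 and GDF15. Of 27 genes of this list, 13 were higher in BAT and 2 in iWAT of UCP1 KO, whereas 3 were higher in BAT and 12 in iWAT of WT. Over all genes tested the shares in UCP1 KO were 16.8% and 19.5%, and in WT 4093 and 5087 of 17630 genes were called. The median gap was 0.80 in UCP1 KO, -0.76 in WT and 0.89 in dKO. The gap was called more positive than in WT for 11 genes, where 346 of all 17630 genes tested were. Against WT, 18 of the 27 rose in BAT of UCP1 KO and 3 in iWAT, where 1306 and 702 of all genes tested rose (12.4% and 4.11% were called in either direction).

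The promoters of 3 genes of the list are shown, a hormone and a pair of amino acid synthesis enzymes, because they hold the letters TGATGNAA, the composite element bound by ATF4 with C/EBP factors. The motif was searched on both strands in the 250 bases before the RefSeq start of each gene (GRCm38.p6). It was found in 8 of the 23 list genes with a promoter sequence (34.8%) and in 309 of the 12172 tested genes with one (2.54%). A match is a description of the letters and not a bound site. The windows of Atf4, Trib3, Mthfd2, Gdf15, Phgdh and Psat1, which are described below, held no match. The list was written to hold genes of the ATF4 pathway, so a share above the background was likely beforehand and is no result of these libraries. The windows of the hormone gene Fgf21 (chr7:45615491-45615740, minus strand), of Pycr1 (chr11:120643749-120643998, minus strand) and of Asns (chr6:7693210-7693459, minus strand) follow 5′ to 3′, with the match in capitals, which in Fgf21 reads on the opposite strand.
Fgf21: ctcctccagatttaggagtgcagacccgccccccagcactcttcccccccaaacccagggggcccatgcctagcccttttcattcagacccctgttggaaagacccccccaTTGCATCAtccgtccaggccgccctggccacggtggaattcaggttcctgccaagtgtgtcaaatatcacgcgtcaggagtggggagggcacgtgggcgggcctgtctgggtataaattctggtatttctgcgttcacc
Pycr1: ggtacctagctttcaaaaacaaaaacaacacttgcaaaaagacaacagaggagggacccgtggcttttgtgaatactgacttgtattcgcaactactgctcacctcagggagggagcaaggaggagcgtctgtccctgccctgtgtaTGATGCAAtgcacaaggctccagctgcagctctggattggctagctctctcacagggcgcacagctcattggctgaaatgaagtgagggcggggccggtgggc
Asns: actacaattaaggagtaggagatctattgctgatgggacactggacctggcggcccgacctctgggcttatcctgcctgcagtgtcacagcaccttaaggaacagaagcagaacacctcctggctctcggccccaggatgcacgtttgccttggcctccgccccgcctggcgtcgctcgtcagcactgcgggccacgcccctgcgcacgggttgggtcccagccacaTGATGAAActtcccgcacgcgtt

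Trib3, a pseudokinase induced by ATF4, had 68.0, 101, 148, 312 and 364 CPM in BAT of UCP1 KO and 6.58, 4.22, 17.8, 32.3 and 52.0 CPM in iWAT. In WT both depots were low, at 5.71 to 8.71 CPM in BAT and 2.78 to 9.25 CPM in iWAT. A gap of 3.14 ± 0.48 (adjusted p = 2.18e-06) was therefore present where WT had one of 0.33 ± 0.46, and the difference was 2.81 ± 0.65 (adjusted p = 0.00318), a call that was lost without BAT UCP1 KO replicate 5. Mthfd2, a mitochondrial enzyme of one-carbon metabolism, had 42.6, 60.8, 103, 86.5 and 93.2 CPM in BAT and 7.24, 22.5, 16.3, 19.5 and 27.6 CPM in iWAT of UCP1 KO. Its direction was turned, with a gap of 2.05 ± 0.40 in UCP1 KO and -1.71 ± 0.41 in WT. Atf4 itself had 221 to 315 CPM in BAT and 102 to 143 CPM in iWAT, a small and even gap of 1.11 ± 0.11 against 0.26 ± 0.11 in WT (adjusted p of the difference = 0.000235).

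Fgf21 had 11.7, 29.5, 42.5, 34.9 and 29.4 CPM in BAT of UCP1 KO and 0.709, 0.511, 5.27, 8.00 and 11.2 CPM in iWAT. The highest iWAT library came close to the lowest BAT library without overlap. In WT the gene was near the limit of counting in both depots, at 0.281 to 0.354 CPM and 0.0397 to 0.261 CPM. The gap was 2.53 ± 0.55 (adjusted p = 0.000381) against 1.35 ± 0.68 in WT, and the difference between these was not called (adjusted p = 0.425). Gdf15, a stress hormone that acts on the brainstem, had 3.39, 8.94, 8.46, 15.7 and 16.7 CPM in BAT and 0.987, 0.756, 1.20, 2.57 and 2.78 CPM in iWAT. Its gap of 2.68 ± 0.54 stood against -1.10 ± 0.64 in WT, a difference of 3.79 ± 0.83 (adjusted p = 0.00183). Bmp8b, a thermogenic BMP of brown fat, was higher in BAT in both genotypes, with 13.5 to 39.7 CPM in BAT and 0.329 to 10.1 CPM in iWAT of UCP1 KO.

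Among the amino acid genes, Asns, asparagine synthetase, had 107 to 149 CPM in BAT and 32.8 to 81.1 CPM in iWAT of UCP1 KO, with a gap of 1.12 ± 0.24 (adjusted p = 0.000266). Pycr1, an enzyme of proline synthesis, and Slc7a5, a transporter of large neutral amino acids, lost a gap toward iWAT. Pycr1 went from -1.60 ± 0.30 in WT to 0.80 ± 0.29, and Slc7a5 from -3.77 ± 0.51 to 1.07 ± 0.43, with neither called in UCP1 KO. Phgdh and Psat1, enzymes of serine synthesis, were the 2 list genes that were higher in iWAT of UCP1 KO, with gaps of -1.55 and -1.17, and were named after their values were seen. The call of Psat1 was lost without any 1 of iWAT replicates 1, 3 and 4 and BAT replicates 1, 2, 3 and 4. Neither gene was called with the 10 UCP1 KO libraries alone, where 10 list genes were higher in BAT (1867 of all 17630 genes tested). With libraries of high lymph node or muscle score left out, 13 were higher in BAT and 1 in iWAT (3152 and 3329 of all genes tested). In that setting 12 had a more positive gap than in WT, where 597 of all genes tested did.

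Among the genes that mark where a depot comes from, Zic1 (chr9:91358058-91365810, minus strand) is a zinc finger factor of the dorsal somite. It had 5.82, 1.40, 6.27, 8.05 and 8.92 CPM in BAT of UCP1 KO and at most 3 counts in any iWAT library. That is at least 75.5-fold higher in BAT in UCP1 KO and at least 92.0-fold in WT, with the floor set at 3 counts per library. BAT replicate 2 was the low one, and it is the library with the high muscle score.

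Hoxc10 (chr15:102966796-102971893, plus strand) had 0 counts in all 5 BAT libraries of UCP1 KO and 24.1, 10.0, 21.5, 18.3 and 21.6 CPM in iWAT, at least 229.5-fold higher in iWAT. In WT it was at least 127.6-fold higher. Hoxc9 (chr15:102976439-102985099, plus strand) had 6.43, 3.78, 6.83, 5.93 and 4.41 CPM in iWAT of UCP1 KO and at most 0.0469 CPM in BAT, at least 65.8-fold higher in iWAT. Hoxa10 (chr6:52231197-52240854, minus strand) had 4.29 to 9.74 CPM in iWAT and 0 to 0.0984 CPM in BAT. None of these genes had overlapping depots in UCP1 KO. They are among the largest gaps without overlap by which genes were named, so this follows from the choice. Of all genes tested, 29.5% did not overlap.

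Of 28 Hox genes tested, out of 39 listed, 14 were higher in iWAT and 4 in BAT of UCP1 KO, against 15 and 6 in WT. Over all genes tested the shares in UCP1 KO were 19.5% and 16.8%, so that the count toward BAT was near the background. Their median gap was -0.95 in UCP1 KO, also with genes at the floor set to their bound, and -0.88 in WT. Of the 28, 16 were kept, where 27% of all genes tested were. All tested genes with the paralogue numbers 9 and 10, which pattern the posterior body, were higher in iWAT, and Hoxa4, Hoxa5, Hoxb4 and Hoxc4, which pattern more anterior segments, were higher in BAT. The call of Hoxc4, at a gap of 0.69, was lost without iWAT replicate 2, 4 or 5 or BAT replicate 3 or 5. With upper-quartile scaling, with no filter and with the 10 UCP1 KO libraries alone, 2 Hox genes rather than 4 were called higher in BAT. Hoxa5 had 14.1 to 22.9 CPM in BAT and 2.87 to 4 CPM in iWAT, a gap of 2.31 ± 0.19 against 2.96 ± 0.19 in WT. Hoxa4 had 8.03 to 14.7 CPM in BAT and 1.20 to 3.28 CPM in iWAT, and its gap of 2.23 ± 0.28 was smaller than the 3.77 ± 0.30 of WT (adjusted p = 0.00574). This difference was lost when any 1 of 12 of the 20 libraries was left out, as listed under the dependence on the processing.

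**Figure D4:**
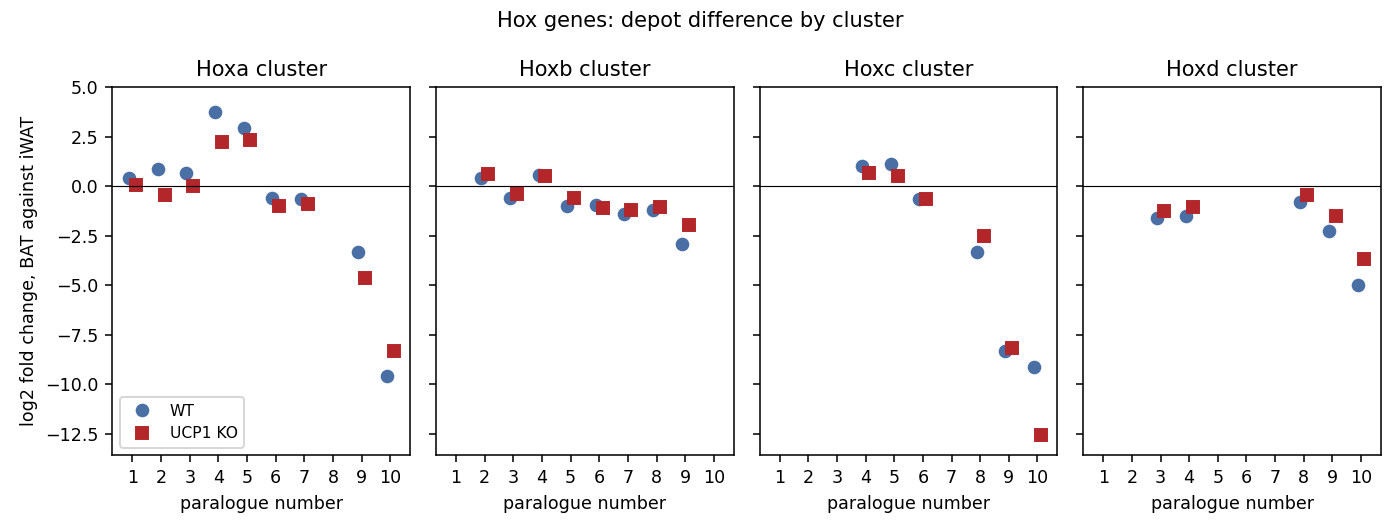
Each panel is a Hox cluster, with the paralogue number on the x axis and the log2 fold change of BAT against iWAT on the y axis for WT (circles) and UCP1 KO (squares). Hoxa4 and Hoxa5 lie above zero and the paralogues 9 and 10 of all clusters below it in both genotypes; the UCP1 KO value of Hoxc10 rests on 0 counts in BAT and is no bound.

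Most white fat and beige cell genes were kept. Of 18 tested, 15 were higher in iWAT of UCP1 KO, against 19.5% of all genes tested, and 18 in WT, with a median of -3.40, also with genes at the floor set to their bound, against -3.70 in WT and -3.91 in dKO. Of the 18, 14 were kept, where 27% of all genes tested were, and 1 had a called difference from WT. The 30 extracellular matrix genes held 23 that were higher in iWAT, with a median of -1.84 against -2.22 in WT. For the difference of the gap 0 were called by edgeR, by DESeq2 and by limma voom, and 4 had an unadjusted edgeR p under 0.05. Col1a1, the chain of type I collagen, had 144 ± 72.3 CPM in BAT and 873 ± 356 CPM in iWAT of UCP1 KO. The 6 adipose progenitor markers were all higher in iWAT, and the part of cell composition in the matrix counts was not tested.

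Of the adipokines, Cfd, complement factor D or adipsin, had 282, 218, 82.5, 85 and 119 CPM in BAT and 5680, 2070, 4270, 4900 and 2910 CPM in iWAT of UCP1 KO. Its gap in UCP1 KO was -4.66 ± 0.65 (adjusted p = 4.39e-07) against -2.70 ± 0.60 in WT, and the difference between these was not called. Adipoq, adiponectin, had 257 to 568 CPM in BAT and 1180 to 2220 CPM in iWAT, with a gap of -1.96 ± 0.28. Lep, the satiety hormone leptin, had 2.89, 147, 79.4, 33.0 and 2.82 CPM in BAT and 96.1, 246, 520, 179 and 103 CPM in iWAT, and the depots overlapped. Its gap of -2.11 ± 0.84 was not called (adjusted p = 0.0350), where that of WT was -3.74 ± 0.90. Of the 20 secreted factors, 10 were higher in iWAT and 4 in BAT, and 12 were kept, where the shares over all genes tested were 19.5%, 16.8% and 27%. The count toward BAT was near the background. Epdr1, an ependymin-related secreted protein, had 12.1 to 25.6 CPM in BAT and 9.6 to 23.5 CPM in iWAT of UCP1 KO, so its WT gap of -1.97 ± 0.26 was not seen (gap 0.14 ± 0.25).

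The remaining lists are given by their counts. Of 13 brown lineage genes tested, 1 was higher in BAT and 2 in iWAT of UCP1 KO, against 5 and 4 in WT. Of the 13, 3 were kept, which is near the 27% of all genes tested. For the difference of the gap 0 were called by edgeR and by limma voom and 1 by DESeq2, and 4 had an unadjusted edgeR p under 0.05. Prdm16, a regulator of the brown fate, had 23.0 to 41.4 CPM in BAT and 13.5 to 25.6 CPM in iWAT, with a gap of 0.66 ± 0.28 (adjusted p = 0.0518). Of 16 mitochondrial chaperones and proteases, 13 were higher in BAT, and 4 had a smaller gap. Of 19 PPAR and PGC1 regulators, 8 were higher in BAT and 2 in iWAT, and 5 had a called difference of the gap from WT. Of 30 adrenergic and cAMP genes, 10 and 5 were higher, and 4 differed. Of 26 genes of glyceroneogenesis and lipid cycling, 8 and 2 were higher, and 5 differed. Of 18 lipogenesis genes, 3 and 1 were higher, and 1 differed. Of 17 genes of creatine and calcium cycling, 8 and 3 were higher, and 1 differed. Of 7 elongases, 2 and 1 were higher, and 2 differed. Over all genes tested, 36.3% were called between the depots and 6.47% for the difference from WT. With the 10 UCP1 KO libraries alone, 3 adrenergic and cAMP genes were higher in BAT and 4 in iWAT. In that setting 0 lipogenesis genes and 0 elongases were higher in BAT, where 1867 of all genes tested were. Leaving out the libraries of high lymph node or muscle score gave 9 adrenergic and cAMP genes and 11 chaperones and proteases with a more negative gap (1390 of all genes tested).

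Among the largest gaps toward BAT that did not overlap, Ptgds, prostaglandin D synthase, had 33.6, 10.4, 26.3, 26.6 and 6.39 CPM in BAT and 0.539 to 0.778 CPM in iWAT of UCP1 KO, with a gap of 5.01 ± 0.60 against 5.81 ± 0.64 in WT. Cpne5, a copine, had 1.56 to 24.6 CPM in BAT and 0.239 to 1.28 CPM in iWAT, and its gap of 4.40 ± 0.90 stood against 0.55 ± 0.90 in WT, a difference that was not called (adjusted p = 0.0331). Fam131c, Zswim5 and Wwc1 had gaps of 3.68, 3.59 and 3.54. Gmpr, which was kept, had a gap of 3.35. Sgk2, a kinase that was also kept, had overlapping depots, at 0.946 to 41.8 CPM in BAT and 0.0889 to 3.62 CPM in iWAT, and its call at a gap of 3.50 was lost without BAT replicate 1 or any 1 of iWAT replicates 1, 2, 3 and 4. Toward iWAT, Prtn3, a neutrophil serine protease, had 6.25, 2.27, 5.36, 9.01 and 2.49 CPM in iWAT and 0 to 0.0704 CPM in BAT. Its fitted gap was -6.94 ± 0.91. With at most 3 counts in any BAT library, it was at least 61-fold higher in iWAT, the floor being 3 counts per library. Pon1, paraoxonase 1, had 14.4 to 24.2 CPM in BAT of WT and 1.18 to 3.81 CPM in BAT of UCP1 KO, with 6.45 to 25.8 CPM in iWAT, so a gap of -2.93 ± 0.40 was new.

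Several large gaps rested on 1 library. Marco, a scavenger receptor of macrophages, had 1.11, 193, 0.569, 0.671 and 1.68 CPM in iWAT of UCP1 KO, and its gap of -8.95 ± 1.96 was -3.67 and no longer called without iWAT replicate 2 (adjusted p = 0.0689, with a range of 2.41e-10 to 0.282 over 23 alternative fits). Glycam1, Dsc3 and Nsg2 likewise lost their calls without this library, which is the one with the lymph node score of 6.95, and Dsc3 and Nsg2 also without any 1 of the 5 BAT libraries. Cd209b and Cd5l, both of macrophages, were also highest there, at 253 and 55.2 CPM, but the depots did not overlap and the calls held without it. On the BAT side, Myh7, the slow muscle myosin, had 0.166, 370, 15.4, 2.68 and 0 CPM, and the largest value was in replicate 2, the library with the muscle score of 9.73. Without it the gap of Myh7 was 5.56 (adjusted p = 0.0128, with a range of 1.16e-08 to 0.554 over 23 alternative fits), and those of Tnni1 and Tnnt1 were 2.87 and 1.74, none of them called. Slit1 had 83.5 CPM in BAT replicate 5 and 0.864 to 8.24 CPM in the other BAT libraries, and it lost its call without replicate 5.

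To place every library between the WT depots, the 3214 genes that were called in WT with a log2 gap of at least 2 were used, and 0% was set at the mean of WT iWAT and 100% at the mean of WT BAT. The WT values chose these genes, so the scores are descriptions with no test, and 93.6% of the genes had a smaller absolute gap in UCP1 KO than in WT. The median absolute gap over them was 3.06 in WT, 1.86 in UCP1 KO and 2.62 in dKO. BAT of UCP1 KO lay at 64.9% to 91.3% and iWAT at 1.9% to 36.1%, and the depots remained apart. On the 782 genes that were higher in WT BAT, iWAT of UCP1 KO lay at 10.6% to 55.2%, with a median of 41.6%, against -15% to 12.6% in iWAT of dKO and -24.6% to 9.5% in iWAT of FGF21 KO. On the 2432 genes that were higher in WT iWAT, BAT of UCP1 KO lay at 55.6% to 86.8% and BAT of dKO at 73.4% to 90.7%. The lowest iWAT position on brown genes in UCP1 KO belonged to replicate 2, the library with the high lymph node score. High lymph node scores were also found in iWAT replicates 1 and 3 of dKO (6.97 and 6.98), in 4 of the 5 iWAT libraries of FGF21 KO (6.64 to 7.09) and in iWAT replicates 4 and 5 of WT (6.08 and 6.57), which enter the 0% mark. On brown genes all negative positions in dKO and FGF21 KO came from these libraries. The others lay at 4.2%, 12.6% and 8.3% in dKO and at 9.5% in FGF21 KO, and at 31.4% to 55.2% in UCP1 KO.

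**Figure D5:**
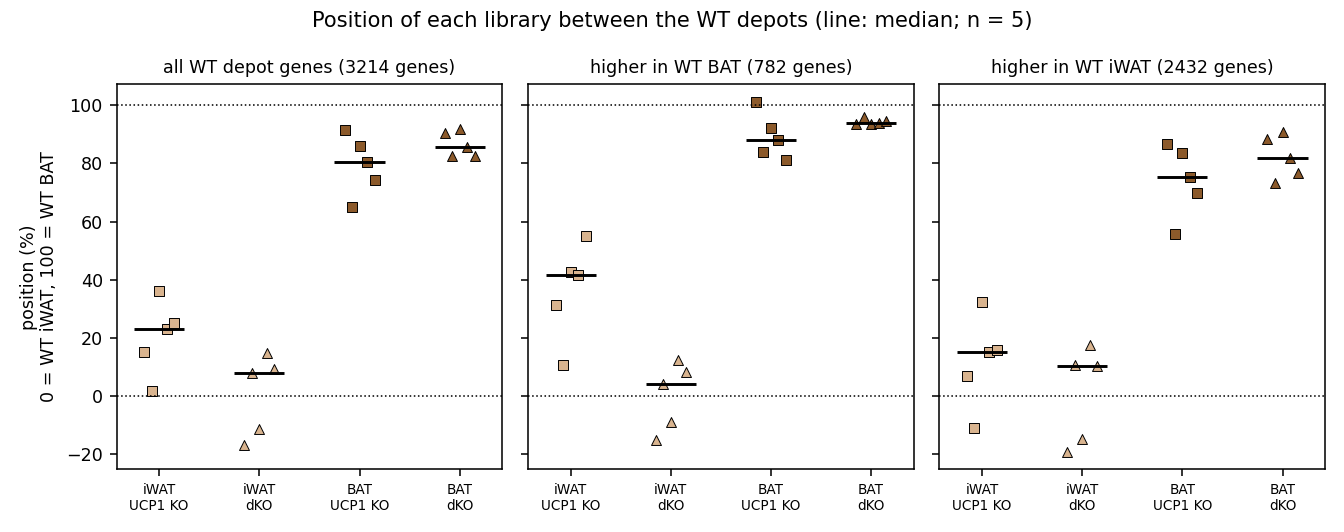
The y axis is the position of each library between WT iWAT (0%) and WT BAT (100%), for all WT depot genes and for those higher in either depot, with the median of 5 libraries as a line. On the 782 genes higher in WT BAT, the iWAT libraries of UCP1 KO reach 55.2% while those of dKO reach 12.6%.

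The dKO libraries, taken to lack FGF21 as well as UCP1, served as a second reference. The gap differed between UCP1 KO and dKO for 234 genes (1.33%), of which 222 had a more negative gap in UCP1 KO and 12 a more positive one. This comparison uses the same UCP1 KO libraries as the one with WT. Of the 28 brown and thermogenic genes, 17 had a smaller gap in UCP1 KO than in dKO, and of the 65 respiratory chain genes 28. Cidea had 8.49, 33.0, 26.9, 56.7 and 34.2 CPM in iWAT of dKO, and its gap there was 6.24 ± 0.61, a difference of -3.85 ± 0.71 from UCP1 KO (adjusted p = 0.00133). Of the 27 integrated stress response genes 0 were called by edgeR, by DESeq2 and by limma voom, and 6 had an unadjusted edgeR p under 0.05. Trib3 had a gap of 4.38 ± 0.51 in dKO, and the difference of -1.24 ± 0.64 was not called (adjusted p = 0.335). Atf4 had a gap of 1.18 ± 0.11 in dKO, a difference of -0.07 ± 0.15. The count of 234 ranged from 88 to 552 when 1 library was left out in turn.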

How the data were processed

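The authors extracted total RNA, prepared strand-specific poly(A) libraries and sequenced them as paired ends. Their processing notes name STAR, HTSeq and the build mm10. Whether counting used strand is not given in the sources used here, so a gene and its antisense partner may share reads. The deposited values are raw read counts per gene and library, with no normalization, and the 1 row without a gene name held at most 2.4e-05% of a library and was left out.

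Counts were scaled by TMM and tested with the quasi-likelihood test of edgeR 4.0.16 in R 4.3.3, with p-values adjusted by Benjamini-Hochberg over the 17630 genes tested. The filter asked, within the 20 libraries of at least 1 depot, for a maximum count above 15, a sum above 75 and at most 10 libraries at 0. One model held all 40 fat libraries as 8 groups with no covariate and 32 residual degrees of freedom, and contrasts gave each depot gap, the differences of gaps between genotypes, and the change in each depot. Fold changes are log2 with their SE. Genes were called at an adjusted p under 0.01. Log2 CPM for single-gene permutation tests, all two-sided, had a prior count of 2. The script was tested on simulated data. Coordinates are from GENCODE vM21 (15632 genes matched by name) and promoters from RefSeq. Intervals of counts cover counting error only. Within BAT and within iWAT of UCP1 KO, no library was identical to another, and the other groups were not checked for this. Nothing in the labels says that the libraries came from separate animals or which BAT and iWAT libraries came from 1 mouse. The p-values therefore measure the spread between these samples.

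Members and gene lists were chosen with earlier results of these data known. Named genes were those of the brown and thermogenic, brown lineage, white and beige, and secreted factor lists that the comparison turned on, up to 3 called members per direction of each other list, the 8 largest non-overlapping gaps per direction, the 6 largest falls and gains of the gap, and the 6 largest kept gaps per direction, the last 3 with a mean of at least 5 CPM in the higher group. Alternatives were DESeq2 1.42.0, voom of limma 3.58.1, a minimum fold (glmTreat), other scalings, filters and library sets, marker scores as covariates, and each replicate left out in turn. After the marker scores were seen, libraries with a skeletal muscle score above 9, alone or with those with a lymph node score above 4, were also left out.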

Additional observations from a re-analysis of the deposited data

Results flagged for a closer look

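Within the UCP1 KO groups, 85 gene and score sets of 5 libraries were examined for a single library far from the others, and 11 were found. Chance gives about 1 in 20 for independent sets. The genes examined were those named in the text, some of them described above because 1 library carries their call. Several sets also flag the same library, so that rate is no yardstick for the 11. In BAT, replicate 1 was apart for Dio2 (log2 CPM 8.87, others 5.66 to 6.23), Fgf21 (3.56, others 4.88 to 5.41) and Slc7a11, the cystine transporter (-0.29, others 1.20 to 1.62). BAT replicate 2 was low for Lgr6 (5.47, others 6.67 to 7.01) and Zic1 (0.54, others 2.55 to 3.17). BAT replicate 3 was high for Hoxa10 (-2.75, others -4.31), which rests on 4 counts. In iWAT, replicate 2 was apart for the lymph node score (6.95), Slc7a11 (4.11, others -1.22 to 0.33), Marco (7.59), Glycam1 (5.96) and Dsc3 (5.01).

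Differences of the depot gap between UCP1 KO and WT were called for 1141 genes, and between UCP1 KO and dKO for 234. Among the genes described above are the following examples, which are not all of those called. The gap was more negative, on the log2 scale, for Ucp1 (-8.29), Lgr6 (-6.78), Cpn2 (-5.93), Slc27a2 (-5.72), Slc2a5 (-5.70), Kng2 (-5.38), Elovl3 (-5.09), Cidea (-5.00), Dio2 (-4.70), Cox7a1 (-3.85), Pon1 (-3.13) and Hoxa4 (-1.54). It was more positive for Myh7 (11.89), Tnni1 (9.26), Tnnt1 (7.06), Slit1 (5.56), Slc7a5 (4.84), Gdf15 (3.79), Mthfd2 (3.76), Trib3 (2.81), Epdr1 (2.11), Cpt1a (1.58) and Atf4 (0.85), of which the call was lost for Myh7 without BAT UCP1 KO replicate 2 or iWAT WT replicate 5, and for Slit1 and Trib3 without BAT UCP1 KO replicate 5 (the losses of Hoxa4 are given with the dependence on the processing). The calls of Tnni1 and Tnnt1 were lost without iWAT WT replicate 5, iWAT UCP1 KO replicate 1, 3, 4 or 5, BAT WT replicate 1, 2, 3 or 5, or BAT UCP1 KO replicate 2, and that of Tnnt1 also without BAT WT replicate 4.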

How the results depend on the processing

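Between BAT and iWAT of UCP1 KO the count of 6398 genes stayed within 1.5 times except with the 10 UCP1 KO libraries alone (3931) and with glmTreat at a log2 fold of 1 (1035), under which the WT count was 3486 and the share of WT calls kept with the same sign 25.1%. The 1141 genes whose gap differed from WT became 2203 when the lymph node score was fitted as a covariate, 2031 without iWAT libraries of high lymph node score, 1987 without those of high muscle score as well, and 2371 at an adjusted p under 0.05. The 234 genes whose gap differed from dKO became 482 with DESeq2, 143 with voom, 646, 639 and 752 with the same 3 treatments of lymph node and muscle signal, and 622 at 0.05. The cause of these shifts was not tested. With 1 replicate left out the counts were 5432 to 6399 for UCP1 KO, 8488 to 9030 for WT, 8648 to 9600 for dKO, 749 (without iWAT UCP1 KO replicate 3) to 1518 (without iWAT UCP1 KO replicate 2) for the difference from WT and 88 (without iWAT UCP1 KO replicate 5) to 552 (without iWAT UCP1 KO replicate 2) for the difference from dKO, and the share kept 48.6% to 63.5%. The called difference of Hoxa4 was lost without iWAT WT replicate 3 or 5, iWAT UCP1 KO replicate 1, 3 or 5, BAT WT replicate 1, 3, 4 or 5, or BAT UCP1 KO replicate 2, 4 or 5. Over 146 named genes, 0 of 8451 values under an alternative had the opposite sign where either value was called, while values not called could change sign, as did the gap difference of Marco (-1.64 to 4.34 with 1 library left out). No paired analysis was possible because the labels do not link BAT and iWAT libraries of a mouse.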
